A study of Mus musculus with 6 samples.

Results

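The genes described here are 7 factors of cranial ganglia and of early neuron formation, *Neurog1*, *Neurog2*, *Neurod1*, *Neurod4*, *Pou4f1*, *Tlx3* and *Prph*. They were taken by name from a table of 38553 genes, each name matched 1 entry, and all 7 were above the minimum level set for testing. RNA-Seq was done on craniofacial tissue microdissected from mouse embryos at E12.5. The 3 control samples were *Rbfox2* flox/flox, and the 3 *Rbfox2* mutant samples were Pax3Cre/+:*Rbfox2* flox/flox, so both groups carried the floxed alleles and only the mutants carried Cre. *Rbfox2* encodes a splicing regulator that binds UGCAUG in RNA. Cre was expressed from the *Pax3* locus, which is active in the dorsal neural tube and in the neural crest that leaves it. It is also active in paraxial mesoderm and derivatives of the somites. Cells of another origin in the same tissue, such as most of the forebrain, were not all targeted. Which neurons lost *Rbfox2* was not measured. The samples were described as independent biological replicates, and what embryos or litters the replicate numbers stand for was not stated.

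Sensory neurons of the cranial ganglia come from the neural crest and from ectodermal placodes. In both sources, bHLH transcription factors bind E-box sequences and commit progenitors to a neuronal fate: *Neurog1* and *Neurog2* (neurogenins) act first, and *Neurod1* and *Neurod4* act downstream of them in the differentiating cells. *Pou4f1* (also called Brn3a) and *Tlx3* are homeodomain factors of neurons that have already left the cycle, and *Prph* encodes peripherin, an intermediate filament of peripheral neurons. The bHLH factors are not restricted to ganglia. They are also used by progenitors of the forebrain, the olfactory epithelium and the retina, while *Pou4f1*, *Tlx3* and *Prph* at this age mark mainly ganglion neurons in the head, and other neurons of the midbrain, hindbrain and spinal cord.

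In short, none of the 7 genes differed between mutant and control past the threshold, and they fell into groups with unlike behaviour across the samples. The 4 bHLH factors had the same arrangement of samples, with control replicate 1 highest, the 3 mutants in the middle, and control replicates 3 and 2 lowest. *Prph* was the one gene whose mutant values all lay below the control values, with a mean of 16.4 ± 1.43 FPKM in mutants and 22.5 ± 6.25 in controls (SD, n = 3). *Pou4f1* and *Tlx3* overlapped fully between the groups.

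The sites printed first are those that an Rbfox protein could read in the mature transcripts of the 7 genes. TGCATG, the DNA form of UGCAUG, was searched on the sense strand of the longest coding transcript of each gene in GENCODE (GRCm38), and it was present in 4 of the 7. The match stands in capitals with the transcript bases on either side, and the coordinates are those of the match.
Neurod1, 3′ UTR (chr2:79452972-79452977, minus strand): aaaatataaaTGCATGattttataca
Neurod1, 3′ UTR (chr2:79452797-79452802, minus strand): caatagctgtTGCATGtaaaatgcag
Neurod4, coding sequence (chr10:130271100-130271105, minus strand): cggacccggaTGCATGgcctgaatga
Pou4f1, 3′ UTR (chr14:104463976-104463981, minus strand): actgaaatcaTGCATGgctcgaaagg
Prph, 3′ UTR (chr15:99058755-99058760, plus strand): agtcctgctcTGCATGccacagcccc
The longest coding transcripts of *Neurog1*, *Neurog2* and *Tlx3*, with lengths of 1686, 2227 and 1533 bases, held no match. Of 13715 tested genes with a coding transcript, 56.2% held at least 1 match, at 0.283 matches per kb. The transcripts of *Pou4f1* and *Neurod4* were the longest of the 7, with 4445 and 3345 bases, and the median over the tested genes was 3178 bases. Introns, where Rbfox proteins mainly act on splicing, were not analysed here, and a match describes letters and not binding.

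The promoters of the genes were searched for the E-box CANNTG, which reads the same on both strands, in the 250 bases before the RefSeq start (GRCm38.p6). They are shown because the bHLH factors bind such sequences and because *Neurog1* and *Neurod4* are in the set whose levels ran together. An E-box was present in 2 of the 7 windows, and in 66% of 27025 windows of all genes. *Pou4f1* held CAGCTG at -118 and CAGGTG at -41, counted back from the start, and these 2 E-boxes stand in capitals.
Pou4f1 (chr14:104468000-104468249, minus strand): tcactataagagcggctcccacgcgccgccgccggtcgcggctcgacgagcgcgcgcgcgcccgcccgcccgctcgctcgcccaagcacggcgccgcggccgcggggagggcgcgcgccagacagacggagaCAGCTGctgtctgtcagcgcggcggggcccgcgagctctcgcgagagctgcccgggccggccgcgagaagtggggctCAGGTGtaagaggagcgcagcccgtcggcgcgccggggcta
Neurog1 (chr13:56252181-56252430, minus strand): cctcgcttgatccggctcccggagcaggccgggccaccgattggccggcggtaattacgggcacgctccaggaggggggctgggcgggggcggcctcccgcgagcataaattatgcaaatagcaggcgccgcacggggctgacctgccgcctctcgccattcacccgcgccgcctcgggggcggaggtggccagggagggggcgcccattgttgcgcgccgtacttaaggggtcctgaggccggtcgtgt
Neurod4 (chr10:130280255-130280504, minus strand): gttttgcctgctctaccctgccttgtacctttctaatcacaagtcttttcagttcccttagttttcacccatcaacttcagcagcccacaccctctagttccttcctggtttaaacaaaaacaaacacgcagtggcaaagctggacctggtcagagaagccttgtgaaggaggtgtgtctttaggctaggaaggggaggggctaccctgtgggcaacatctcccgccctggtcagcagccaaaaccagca
The window of *Neurod1* held CATATG at -242, and those of *Neurog1*, *Neurog2*, *Neurod4*, *Tlx3* and *Prph* held none. Enhancers outside the windows were not analysed here.

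Expression is given as FPKM, the fragments mapped to a gene scaled by its length and by all fragments mapped, so levels can be set beside each other between genes. The FPKM values of a sample summed to between 528123 and 590174, the read count behind a value is unknown, and no counting interval can be given. Groups were compared with limma on log2(FPKM + 1), a scale on which folds of weakly expressed genes come out too small, over 14978 genes with a mean FPKM over 0.5, and with Benjamini-Hochberg adjustment. *Rbfox2* was measured at 58.4, 65.0 and 61.3 FPKM in control replicates 1, 2 and 3 and at 38.1, 36.3 and 34.3 in the mutants, a log2 fold change of -0.75 (SE 0.078), which goes with the labels. *Pax3*, which carries the Cre allele, was also lower in all mutants, with 8.62, 7.59 and 8.36 FPKM against 8.83, 11.9 and 11.1 and a log2 fold change of -0.33 (SE 0.12). Control replicate 1 and mutant replicate 1 stood apart from the other 4 samples: on a first principal component that held 45.8% of the variance they lay at -24.8 and -23.5, and the others on the positive side, up to 15.2. Y-linked genes averaged 14.4 and 13.9 FPKM in mutant replicates 1 and 2 and no more than 0.0541 in the other 4 samples, so this expression also differed between the groups. In bulk tissue, fewer cells of a type cannot be told apart from less RNA per cell.

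*Neurog1* (ENSMUSG00000048904, chr13:56250478-56252163, 1 exon) starts sensory neurogenesis in the trigeminal ganglion, which gathers sensation from the face. It was measured at 8.97, 3.85 and 5.33 FPKM in control replicates 1, 2 and 3 and at 6.70, 6.25 and 7.59 in mutant replicates 1, 2 and 3. The mutants lay inside the range of the controls, below the first and above the other 2. Controls averaged 6.05 ± 2.64 and mutants 6.85 ± 0.681 FPKM (SD, n = 3), a log2 fold change of 0.22 (SE 0.25, 95% interval -0.37 to 0.80).

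*Neurog2* (ENSMUSG00000027967, chr3:127633135-127635631, 2 exons) acts in the epibranchial placodes, and in the cortex it drives the formation of excitatory neurons. It had the highest mean level of the 7 genes and the widest control range, with 34.5, 9.21 and 14.5 FPKM in the controls against 17.4, 28.1 and 19.7 in the mutants. Control replicate 1 exceeded control replicate 2 by 3.75-fold, a wider gap than any between the groups. Controls averaged 19.4 ± 13.4 and mutants 21.7 ± 5.67 FPKM (SD, n = 3), a log2 fold change of 0.33 (SE 0.43, 95% interval -0.69 to 1.34).

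*Neurod1* (ENSMUSG00000034701, chr2:79452521-79456751, 2 exons) follows the neurogenins and maintains differentiation. Its controls were at 8.99, 5.24 and 5.90 FPKM, and its mutants at 7.57, 7.12 and 7.29, a range of only 1.06-fold. Controls averaged 6.71 ± 2.0 and mutants 7.33 ± 0.228 FPKM (SD, n = 3), a log2 fold change of 0.14 (SE 0.17, 95% interval -0.27 to 0.55). *Neurod1* overlaps *Cerkl* on its own strand and the lincRNA Gm26755 on the other, and how reads were shared between overlapping genes is not stated. *Cerkl* had 1.94, 2.69 and 2.71 FPKM in the controls against 2.65, 2.38 and 2.11 in the mutants, and its lowest sample was the one in which *Neurod1* was highest.

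*Neurod4* (ENSMUSG00000048015, chr10:130268152-130280240, 2 exons), which acts in the same step as *Neurod1*, was the lowest of the 7, with 1.80, 0.985 and 1.12 FPKM in the controls against 1.64, 1.47 and 1.71 in the mutants. Again the first control was above and the other 2 were below all mutants. Controls averaged 1.3 ± 0.438 and mutants 1.61 ± 0.124 FPKM (SD, n = 3), a log2 fold change of 0.19 (SE 0.15, 95% interval -0.15 to 0.54).

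*Pou4f1* (ENSMUSG00000048349, chr14:104461676-104467999, 3 exons) closes the progenitor programme in sensory neurons and starts their subtype genes. Its levels were 5.02, 5.20 and 4.04 FPKM in the controls against 5.29, 3.52 and 5.16 in the mutants, and the groups overlapped, with a mutant at each end. Controls averaged 4.75 ± 0.624 and mutants 4.66 ± 0.987 FPKM (SD, n = 3), a log2 fold change of -0.03 (SE 0.16, 95% interval -0.40 to 0.34), the smallest of the 7.

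*Tlx3* (ENSMUSG00000040610, chr11:33200752-33203589, 3 exons), which selects an excitatory over an inhibitory fate in sensory circuits, was at 4.57, 2.27 and 1.76 FPKM in the controls against 4.87, 1.57 and 2.82 in the mutants. The first replicate was the highest in both groups. Controls averaged 2.87 ± 1.5 and mutants 3.09 ± 1.66 FPKM (SD, n = 3), a log2 fold change of 0.06 (SE 0.36, 95% interval -0.77 to 0.90), and this interval holds changes of a size that 3 samples in a group could not separate from 0 here.

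*Prph* (ENSMUSG00000023484, chr15:99055174-99058978, 3 to 9 exons over 4 coding transcripts) was at 18.4, 29.7 and 19.4 FPKM in the controls against 16.7, 17.7 and 14.8 in the mutants. All 3 mutants lay below all 3 controls, and the nearest values, 18.4 and 17.7, were close. The mutant mean was 72.7% of the control mean, and the log2 fold change was -0.41 (SE 0.18, 95% interval -0.83 to 0.01). The exact two-sided permutation test gave p = 0.10, the smallest value that 3 samples against 3 allow, and limma gave an unadjusted p of 0.055 and an adjusted p of 1.0. Without control replicate 2, the highest sample, the log2 fold change was -0.20 (SE 0.10, unadjusted p = 0.10 in limma). The transcript of *Prph* holds 1 of the UGCAUG matches shown, in its 3′ UTR. *Prph* is counted per gene, so its transcript forms were not told apart.

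**Figure D1:**
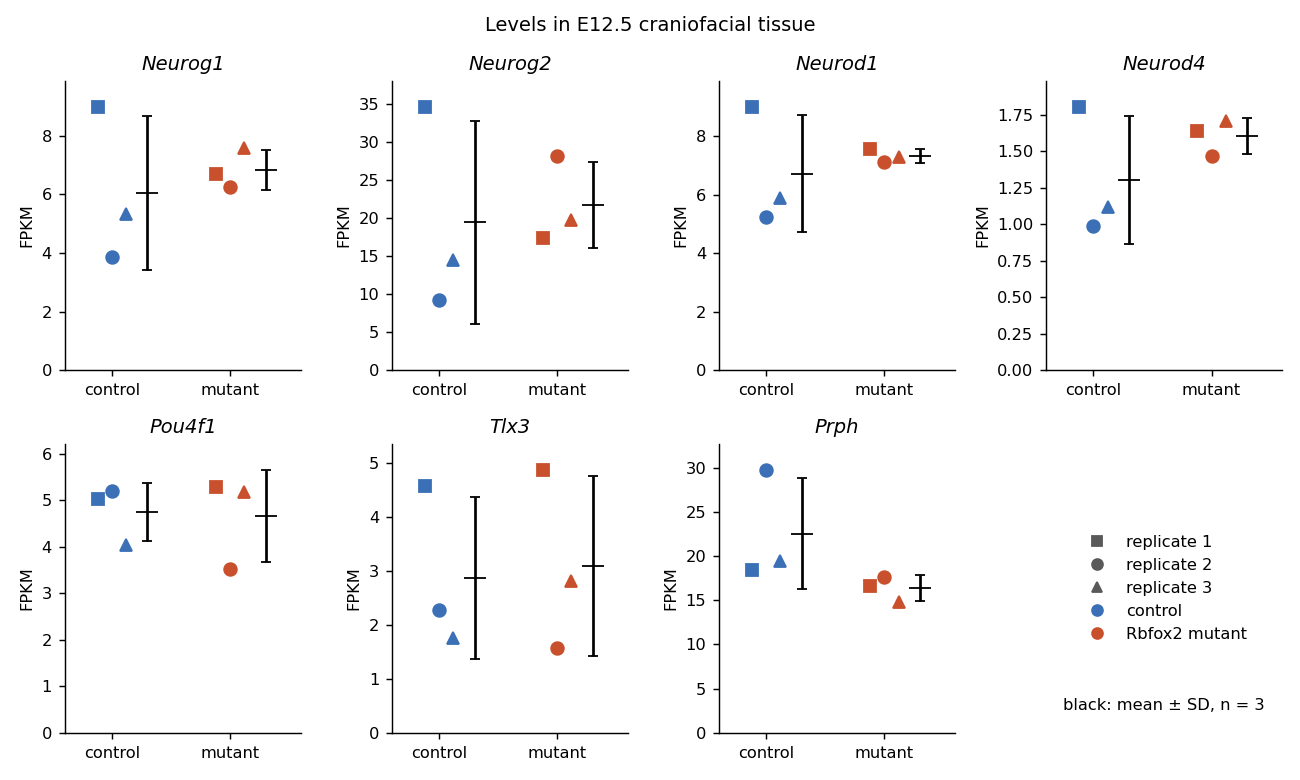
FPKM of the 7 genes in 3 control (blue) and 3 *Rbfox2* mutant (orange) samples, with the replicate number as the marker shape and the mean ± SD in black (n = 3). In the 4 panels of the bHLH factors 1 control lies above and 2 lie below all mutants, and in the *Prph* panel all mutants, at 14.8 to 17.7 FPKM, lie below the controls.

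By mean level over all 6 samples the order was *Neurog2* (20.6 FPKM), *Prph* (19.5), *Neurod1* (7.02), *Neurog1* (6.45), *Pou4f1* (4.70), *Tlx3* (2.98) and *Neurod4* (1.45). Some neighbours in this order did not differ beyond their spread. The ratio of *Neurog2* to *Prph* ran from 0.310 to 1.87 over the samples, that of *Neurog1* to *Neurod1* from 0.734 to 1.04, and that of *Neurog1* to *Pou4f1* from 0.741 to 1.79, so each pair changed places at least once. The ratios of *Neurod1* to *Prph*, with 0.176 to 0.491, and of *Pou4f1* to *Tlx3*, with 1.09 to 2.29, and those of *Neurod4* to *Tlx3*, with 0.337 to 0.936, stayed on 1 side in all 6 samples.

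With limma and Benjamini-Hochberg adjustment, the adjusted p was under 0.05 for 0 of the 7 genes, where it was for 0% of all genes tested, and the unadjusted p was under 0.05 for 0 of 7, where it was for 2.26% (129 genes higher and 209 lower). Every member had an adjusted p of 1.0, and the smallest adjusted p of any gene was 0.195. The mutant mean was higher for 5 genes and lower for *Pou4f1* and *Prph*, and the median log2 fold change was 0.14, beside 0.0010 for all genes tested. The median standard error of the 7 was 0.18, beside 0.12 for all genes. The groups did not overlap for 1 of 7 genes, *Prph*, where 6.08% of genes did not overlap in either direction and 3.21% had all mutants below all controls.

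The shared arrangement of the bHLH factors was noted after their values were seen and is given as a description. Control replicate 1 was above, and control replicates 2 and 3 were below, all mutants for 4 of the 7 genes, and for 4.22% of all genes tested. The controls spread more than the mutants on the log2 scale in 5 of the 7 genes (the 4 bHLH factors and *Prph*), where 51.5% of all genes did. For the 4 bHLH factors this follows from the arrangement, which places the mutants inside the range of the controls, and is not a separate trait. For *Neurod1* the SD of log2(FPKM + 1) was 0.36 in controls and 0.039 in mutants, and for *Neurog2* it was 0.92 and 0.35. *Neurog1*, *Neurod1* and *Neurod4* varied less against each other than alone. The ratio of *Neurod1* to *Neurod4* was 4.99, 5.32 and 5.25 in control replicates 1, 2 and 3 and 4.62, 4.85 and 4.26 in mutant replicates 1, 2 and 3, a range of 1.25-fold, while *Neurod1* itself varied by 1.71-fold and *Neurod4* by 1.83-fold. The mutant ratios were all below the control ratios by a small step, 0.18 on the log2 scale, the 1 pair of 21 whose groups did not overlap. The share of such pairs over all genes was not computed. For any full separation of 3 samples from 3, the exact two-sided permutation test gives p = 0.10. With 21 pairs looked at, 1 such pair is therefore not read as a difference between the groups. The ratio of *Neurog1* to *Neurod4* varied by 1.27-fold and that of *Neurog1* to *Neurod1* by 1.42-fold, while those of *Neurog2* to the same 3 genes varied by 1.88-fold to 2.25-fold. The ratio of *Neurog2* to *Prph* varied the most of the 21 pairs, by 6.05-fold.

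**Figure D2:**
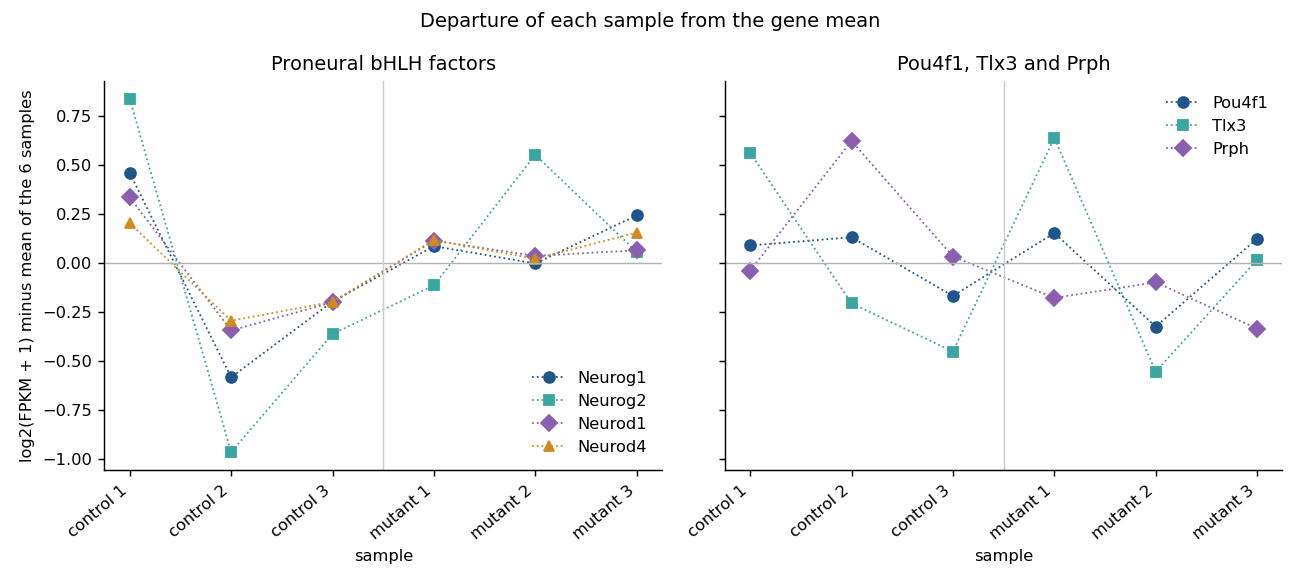
Departure of log2(FPKM + 1) in each sample from the mean of the gene over the 6 samples, for the 4 bHLH factors (left) and for *Pou4f1*, *Tlx3* and *Prph* (right); the dotted lines only join the points of a gene, since replicates have no order. The bHLH factors are high in control replicate 1, low in control replicates 2 and 3 and between these in every mutant, and the other 3 genes do not share this form.

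Because the first replicates stood apart, mutant and control were also set side by side by replicate number. This pairing was taken from the same values, and no source states it. For the 4 bHLH factors the sign turned with the number. *Neurog1* differed by -0.37 in replicate 1, 0.58 in replicate 2 and 0.44 in replicate 3 (mutant minus control, log2(FPKM + 1)). *Neurog2* differed by -0.95, 1.51 and 0.42, *Neurod1* by -0.22, 0.38 and 0.27, and *Neurod4* by -0.09, 0.32 and 0.35. Thus the mutant was lower in the first replicates and higher in the others for all 4. *Pou4f1* differed by 0.06, -0.45 and 0.29 and *Tlx3* by 0.08, -0.35 and 0.47, with the second replicates opposite to the other 2. *Prph* was lower in every replicate, by -0.14, -0.72 and -0.37, and with the replicate number as a block its unadjusted p in limma was 0.014 (adjusted p = 0.80), the 1 call of the 7 genes, where 6.08% of all genes were called.

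In replicates 2 and 3 only, 2 samples against 2, limma gave an unadjusted p under 0.05 for 5 of the 7 genes, where 9.78% of all genes did. The log2 fold changes were 0.51 for *Neurog1*, 0.97 for *Neurog2*, 0.32 for *Neurod1*, 0.33 for *Neurod4* and -0.54 for *Prph*, beside -0.08 for *Pou4f1* and 0.06 for *Tlx3*, and all 7 adjusted p-values were 0.47 or above. Leaving out control replicate 1 alone gave calls for 5 genes too, with 0.50, 0.83, 0.34, 0.34 and -0.53 for the 5 in the same order, where 7.03% of all genes were called. In both settings the controls that remain lay below all mutants for the 4 bHLH factors, by the arrangement already described. Their calls therefore restate that arrangement, and the shares of all genes are no test of it. The calls for the bHLH factors thus came only in settings that left out control replicate 1. The size of their differences depended on control replicate 2 as well. Leaving out control replicate 2 gave -0.022 for *Neurog1*, -0.073 for *Neurog2*, 0.0047 for *Neurod1* and 0.095 for *Neurod4*.

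**Figure D3:**
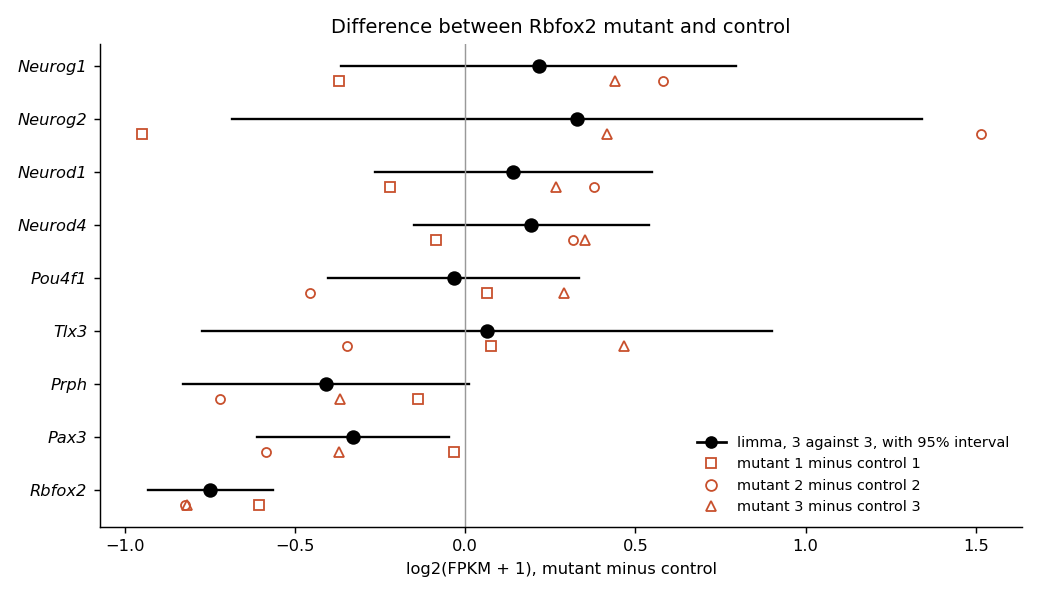
Difference between mutant and control on the log2(FPKM + 1) scale for the 7 genes, *Pax3* and *Rbfox2*, with the limma estimate and its 95% interval in black and the difference within each replicate number as open orange markers. The intervals of the 7 genes all include 0, and the replicate 1 squares of the 4 bHLH factors lie left of 0, opposite to their replicate 2 and 3 markers.

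The genes with the most similar arrangement over the 6 samples were found among 13714 others by the mean absolute difference of standardized log2(FPKM + 1). They were *Atp5g2*, *Nutf2* and *Akirin1* for *Neurog1*, *Cntfr*, *Gm5468* and *Npc2* for *Neurog2*, *Ddx28*, *Nrn1* and *Dazap2* for *Neurod1*, and *2610301B20Rik*, *Trmt12* and *Elovl4* for *Neurod4*. For *Pou4f1* they were *Narg2*, *Foxf1* and the entry ENSMUSG00000097656, for *Tlx3* *Krit1*, *Zcchc3* and *Foxd2*, and for *Prph* *Figf*, *Man2a1* and *Lhfpl2*. The measure ran from 0.0297 to 0.135 SD for these 21 genes. *Atp5g2*, a subunit of the mitochondrial ATP synthase, had 336, 288 and 306 FPKM in the controls against 320, 316 and 326 in the mutants, so a gene with a far smaller fold range shared the form of *Neurog1*. Among the 7 genes themselves *Neurod1* ranked 25th for *Neurod4*, and *Prph* ranked 11566th for *Neurog1*.

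Other genes of the same programmes were read from lists. Of 16 tested proneural and neuronal differentiation factors of 18 listed, 13 were higher and 3 lower in mutants by their means. Their median log2 fold change was 0.13, and 1 had an unadjusted p under 0.05 in limma, where 2.26% of all genes did. This was *Myt1*, a zinc finger factor that supports neuron formation, with 14.7, 10.6 and 12.7 FPKM in controls and 14.8, 15.7 and 15.9 in mutants (log2 fold change 0.28, SE 0.12, adjusted p = 1.0). The highest of the list were *Hes6*, a promoter of differentiation, *Sox11*, which activates neuronal genes, and *Ebf3*, which acts downstream of the neurogenins, with log2 fold changes of 0.13, 0.13 and -0.01. The arrangement of the bHLH factors recurred in 4 of the 16, *Nhlh1*, *Nhlh2*, *Hes6* and *Insm1*, where 4.22% of all genes had it. The first pair are bHLH factors of new neurons, and *Insm1* is a factor of dividing neuronal precursors. In replicates 2 and 3 only, 7 of the 16 had an unadjusted p under 0.05, where 9.78% of all genes did, and with the replicate block 3 did, where 6.08% of all genes did. For the 4 genes with the arrangement, the separation in replicates 2 and 3 was already part of it. With the mean of Y-linked genes as a covariate, 6 of the 16 were higher instead of 13. These genes were expressed in mutant replicates 1 and 2 alone, so that comparison rests largely on mutant replicate 3 against the controls.

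Genes of neurons in general were higher in mutants by their means in 13 of 14 tested, with a median log2 fold change of 0.16. Those with an unadjusted p under 0.05 were *Tubb3*, a neuronal tubulin (0.34, SE 0.12), *Dcx*, a microtubule protein of migrating neurons (0.26, SE 0.093), and *Elavl3*, an RNA-binding protein of neurons (0.23, SE 0.092). These were 3 of the 14, where 2.26% of all genes had such a p, and none had an adjusted p under 0.05 in limma. *Tubb3* was at 392, 322 and 366 FPKM in controls and 402, 498 and 466 in mutants, and the groups of all 3 genes and of *Stmn2* did not overlap, so 4 of 14 were apart where 6.08% of all genes were. *Uchl1*, a neuronal deubiquitinase and the second highest of the list, had a log2 fold change of 0.18 (SE 0.099), and its groups overlapped. With the replicate block 6 of the 14 had an unadjusted p under 0.05, where 6.08% of all genes did, and with the Y-linked covariate, or without control replicate 2, 0 of the 14 did. The covariate, with which the comparison rests largely on mutant replicate 3, brought the median to 0.065.

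Other transcription factors of sensory and autonomic ganglia were lower in mutants by their means in 10 of 14 tested, with a median of -0.16. An unadjusted p under 0.05 was found for 1 of the 14 in limma, where 2.26% of all genes had it. *Runx3*, needed by proprioceptive neurons, had an unadjusted p under 0.05, with 2.08, 2.79 and 1.94 FPKM in controls and 1.77, 1.41 and 1.70 in mutants (-0.31, SE 0.13, adjusted p = 1.0), and with the replicate block it had not. The highest were *Isl1*, a factor of nearly all cranial sensory neurons (0.06, SE 0.083), *Shox2*, a factor of mechanosensory neurons that is also abundant in the palate (0.03, SE 0.12), and *Hand2*, which is also a factor of the jaw mesenchyme (-0.15, SE 0.13). The groups did not overlap for 2 of the 14, *Runx3* and *Prrxl1*, both lower in the mutants, where 3.21% of all genes were. *Hoxb2*, a gene of the hindbrain, was at 4.40 FPKM in mutant replicate 1 and no more than 0.861 in the other samples. *Hoxb2* and *Prrxl1* were named after their values were seen.

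Receptors and transmitter genes of ganglion neurons were lower in 9 of 15 tested, with a median of -0.03. Among the 15, 0 had an unadjusted p under 0.05 in limma, where 2.26% of all genes did. *Ngfr*, a neurotrophin receptor of crest cells and neurons, was at 21.7, 25.2 and 21.0 FPKM in controls and 21.9, 19.6 and 18.0 in mutants (-0.18, SE 0.10). *Gfra1*, a GDNF receptor, had a log2 fold change of 0.05 (SE 0.13). The groups did not overlap for 2 of the 15, the sodium channel genes *Scn9a* and *Scn10a*, both lower in the mutants, with log2 fold changes of -0.31 (SE 0.17) and -0.24 (SE 0.14), where 3.21% of all genes had all mutants below all controls. The means of 6 of the 15 were higher. Levels of the listed ganglion markers were uneven. *Isl1*, the highest of its list, was between 19.7 and 23.4 FPKM, while *Phox2a* was no more than 0.50 and *Trpv1* no more than 0.23. *Scn9a*, *Scn10a*, *Phox2a* and *Trpv1* were named after their values were seen.

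**Figure D4:**
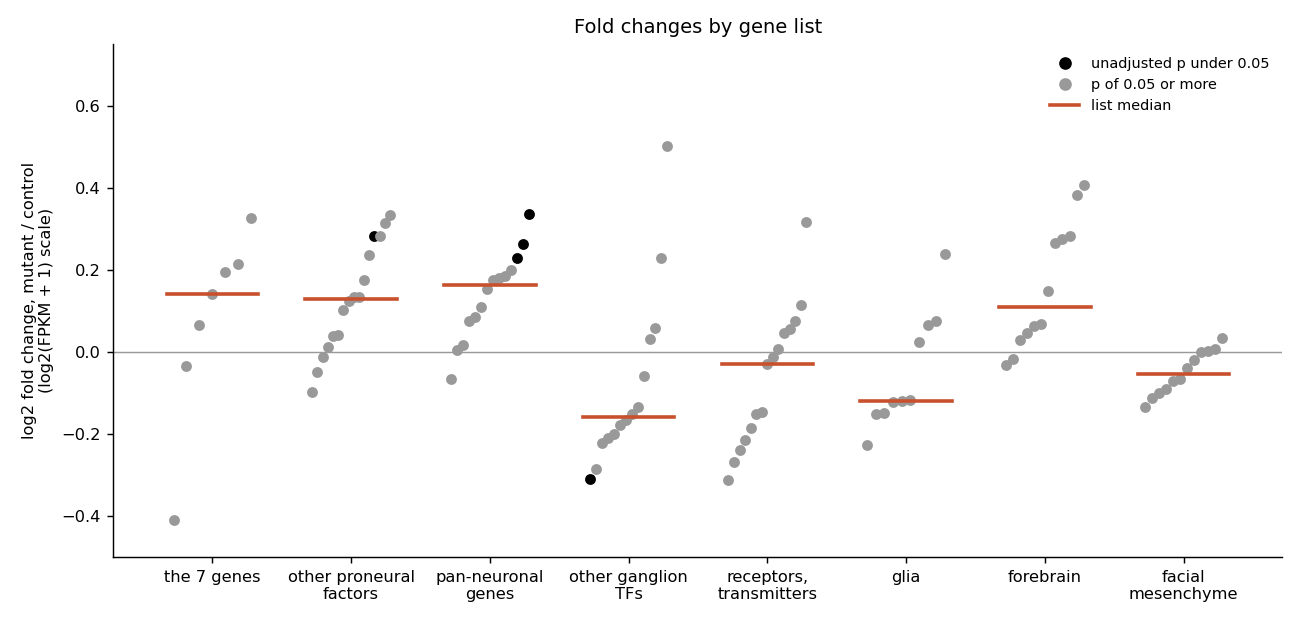
Log2 fold changes (mutant over control, log2(FPKM + 1) scale) of the 7 genes and of 7 lists of genes, 1 point per gene in order of value, with list medians as orange bars and unadjusted p-values under 0.05 in black. The medians of the other proneural factors (0.13) and of pan-neuronal genes (0.16) lie above 0, and those of the other ganglion transcription factors (-0.16) and of glia (-0.12) lie below.

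Among the markers of other tissues that the dissection could hold, those of the forebrain were arranged like the bHLH factors. The summed level of 12 forebrain genes was 313, 141 and 208 FPKM in control replicates 1, 2 and 3 and 242, 247 and 236 in the mutants, the arrangement of *Neurod1* and its relatives. Without *Lhx2*, a factor of forebrain and eye progenitors at up to 90.0 FPKM, the other 11 genes summed to 223, 113 and 162 against 184, 177 and 167, in the same arrangement. *Lhx2* is also in the olfactory and retina lists, whose sums had this arrangement with it, at 152, 89.0 and 109 against 118 to 136 and at 153, 67.2 and 98.6 against 103 to 132. Without *Lhx2* they did not, at 62.5, 60.9 and 62.4 against 60.4, 59.3 and 66.0 and at 63.4, 39.1 and 52.2 against 45.2, 62.4 and 56.6. Of the defining markers of mature olfactory neurons and photoreceptors, *Omp* was no more than 0.271 FPKM and *Crx* no more than 0.168, and no marker of any list was at 0 in all samples. The part of these tissues in the values of the bHLH factors was not tested. The sum of the 15 other ganglion transcription factors was not arranged in this way, with 82.4, 87.4 and 72.6 FPKM in controls and 93.1, 73.9 and 71.3 in mutants. Much of this sum came from *Isl1*, *Shox2* and *Hand2*, with means of 21.5, 19.4 and 13.5 FPKM over the samples. Since *Shox2* is also abundant in the palate and *Hand2* is also a factor of the jaw mesenchyme, the sum does not measure ganglion neurons alone.

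By list, 10 of 12 forebrain genes were higher by their means (median 0.11, with *Lhx2* and *Hes5* among the highest, and 5 of 12 higher without control replicate 2), 4 of 8 tested olfactory genes (0.0095, with *Lhx2*, *Emx2* and *Ebf1*) and 5 of 9 retina genes (0.02, with *Lhx2*, *Pax6* and *Otx2*). In these 3 lists 0 genes had an unadjusted p under 0.05. Of 6 tested otic genes 5 were higher (0.39, with *Sox2*, *Dlx5* and *Otx1* highest), and *Oc90*, a protein of the otoconia of the inner ear, was at 0.0829, 5.04 and 0.0631 FPKM in controls and 25.4, 10.2 and 8.38 in mutants (2.88, SE 0.72, adjusted p = 1.0). Of 8 tested hindbrain and spinal cord genes 7 were higher (0.56, with *Lhx5*, *Pax7* and *Lhx1* highest), and *Hoxa2* was at 0.315, 2.45 and 2.12 against 6.56, 3.69 and 2.74 (1.08, SE 0.41, adjusted p = 1.0). Glia of ganglia and nerves were higher in 4 of 10 (-0.12, with *Fabp7*, *Sox10* and *Erbb3* highest) and facial mesenchyme in 3 of 12 (-0.05, with *Prrx1*, *Twist1* and *Dlx1*), with 0 unadjusted p-values under 0.05. The sum of the facial mesenchyme genes was 568 to 618 FPKM in controls and 524 to 619 in mutants.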

How the data were processed

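RNA-Seq was measured in 3 control and 3 *Rbfox2* mutant samples, grouped by their labels. The authors prepared stranded poly(A)+ libraries, aligned reads with STAR to GRCm38 and deposited FPKM values per gene. The submitters' notes name FastQC 0.11.4 and Cuffdiff, and the annotation and the step that made the table are not given in the sources used here. Per-sample and joint tables held the same values (0 differences). Genes with a mean FPKM over 0.5 in the 6 samples were kept, a pseudocount of 1 was added, and groups were compared on the log2 scale with limma 3.58.1 (R 4.3.3, intensity trend, no covariates), with Benjamini-Hochberg adjustment over all genes tested. The filter of the methods, FPKM over 5, was an alternative. The fit was tested on simulated data drawn independently for each sample, which lack the component on which the first replicates stood apart. Coordinates come from GENCODE, where 95.0% of gene identifiers were found. 27 entries had names turned into dates and kept their identifiers.

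Across genes, the departures of same-numbered control and mutant samples from their group means had correlations of 0.53, 0.25 and 0.33 for numbers 1, 2 and 3, so the numbers were taken as pairs. This comes from the values, and no source ties the numbers to litters or days. Control replicate 3 and mutant replicate 2 also correlated, at 0.29, above the 0.25 of number 2. The values thus do not settle the pairing of numbers 2 and 3.

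Named from each list were the 3 genes with the highest mean FPKM and every gene with an unadjusted p under 0.05, and for each of the 7 genes the 3 most similar. Some genes that this rule names are not reported here. The 7 genes and the lists were chosen with earlier results of these data known. *Gfra3*, *Emx2*, *Hes5*, *Lhx2* and *Pou4f2* are in more than 1 list.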

Additional observations from a re-analysis of the deposited data

How the results depend on the processing

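Depth is unknown, and 3 samples in a group limit every test. The 7 genes kept an adjusted p of 0.05 or more under all alternatives run: a pseudocount of 0.1, both filters, median ratio scaling, quantile normalization, the replicate block, no trend, a Y-linked covariate, replicates 2 and 3 only, and each sample left out. 4 of the 7 passed the FPKM over 5 filter. With the Y-linked covariate, the comparison rests largely on mutant replicate 3 against the controls. The causes of the changes below were not tested unless the setting itself reduces the genes or samples.

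Genes of the 7 with an unadjusted p under 0.05 numbered 0, and 1 with median ratio scaling, 1 with the replicate block, 5 in replicates 2 and 3 only, and 0 to 5 with 1 sample left out, with 5 lacking control replicate 1 and 1 lacking control replicate 3. *Prph* was the gene in the first pair of settings. Genes lower in mutants numbered 2, and 1 with the FPKM over 5 filter, 1 with the Y-linked covariate and 1 to 4 with 1 sample left out, with 4 lacking control replicate 2. Genes of all tested with an adjusted p under 0.05 numbered 0, 4 with the Y-linked covariate, and 0 to 6 with 1 sample left out, with 2 lacking control replicate 1 and 6 lacking mutant replicate 3. Those with an unadjusted p under 0.05 numbered 338, and 167 with the FPKM over 5 filter, 663 with no filter, 910 with the replicate block, 1465 in replicates 2 and 3 only, and 188 to 1053 with 1 sample left out, with the extremes lacking control replicates 2 and 1 and 620 lacking mutant replicate 1. The block changed no other call of the 7 genes. The sign turned for *Pou4f1* with the Y-linked covariate (0.10) and with 1 sample left out (-0.13 to 0.12), for *Tlx3* (-0.24 to 0.36) and, without control replicate 2, for *Neurog1* (-0.022, up to 0.50 with another left out) and *Neurog2* (-0.073, up to 0.83). *Neurod1*, *Neurod4*, *Prph*, *Rbfox2* and *Pax3* kept their sign under every alternative run for them, but with 1 sample left out *Neurod1* ran from 0.0047 to 0.34, *Neurod4* from 0.095 to 0.34 and *Prph* from -0.53 to -0.20, each nearest 0 without control replicate 2. List counts were run under the alternatives after the data were seen. With the Y-linked covariate, 6 instead of 13 other proneural factors were higher in mutants. With fewer genes tested under the FPKM over 5 filter, 2 instead of 10 ganglion transcription factors and 3 instead of 9 receptors were lower. Under the 13 alternatives that keep the genes tested, genes higher in mutants numbered 5 to 12 of 12 for forebrain, 1 to 6 of 10 for glia, 2 to 6 of 9 for retina, 2 to 7 of 12 for facial mesenchyme, 4 to 6 of 8 for olfactory epithelium, 3 to 6 of 6 for otic epithelium, 5 to 7 of 8 for hindbrain and spinal cord, and 11 to 14 of 14 for pan-neuronal genes. Forebrain had 5 without control replicate 2 and 6 with the Y-linked covariate, and facial mesenchyme had 7 with that covariate.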
